A study of Homo sapiens with 2 samples.

Results

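Genes of the immediate early response and of negative feedback on mitogen-activated protein kinase (MAPK) signaling were examined in U87 cells after HOXD9 silencing. The set was defined by name and holds 53 genes, namely AP-1, EGR, KLF and NR4A transcription factors, PEA3-type ETS factors, IER, PHLDA, BTG and ZFP36 genes, dual specificity phosphatases (DUSPs), and Sprouty and Spred genes. On the Affymetrix U133 Plus 2.0 array, which reads each transcript with 1 or more groups of short probes (probe sets), 51 of them had a probe set annotated to that gene alone, 123 of 54613 probe sets in all. EGR2 and BTG2 were not analysed here. DUSP22 was named in the set with its lower level in these data already known.

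U87 cells are an established line from a human glioblastoma. Both samples were transfected at 50 nM by Lipofectamine RNAiMAX, either with HOXD9 siRNA-2 or with a non-silencing control siRNA. RNA was taken on Day 2. Each condition was measured on 1 array, after transient transfection of 1 cell line with 1 siRNA against HOXD9, so that no SD, p-value or test between conditions can be given and no value has a replicate check. The deposited values are linear signal intensities, and the number of arrays limits their precision. Fewer cells that express a gene and less of its RNA per cell cannot be told apart in such bulk RNA.

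ERK, JNK and p38 are the MAPKs that carry signals from growth factor receptors and from stress to the nucleus. There they switch on immediate early genes within minutes and without new protein synthesis, through serum response factor with its ETS partners and through CREB-type factors, and the products of these genes, such as FOS, JUN and EGR1, drive the next wave of transcription. The same signals induce their own brakes, the DUSPs that dephosphorylate MAPKs and the Sprouty and Spred proteins that act upstream of RAF, so that the mRNA of these feedback genes is often read as a measure of pathway output. Receptor tyrosine kinase signaling is frequently activated in glioblastoma.

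The promoters of 5 of the genes are shown, 4 of them textbook examples of these control elements and the other that of DUSP22, the gene of the set with the largest difference between the arrays in the deposited signals (EGR3 has it after centering). Each is the 250 bases just before the annotated gene start, from RefSeq on GRCh38.p14, written 5′ to 3′ on the strand of the gene. Capitals mark CArG boxes (the binding motif of serum response factor), the cyclic AMP response element TGACGTCA, its core TGACG, and the TATA motif TATAAA, each searched on both strands, so that the core also appears as its reverse complement. The core lies within the full element.

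EGR1, chr5:138465229-138465478, plus strand: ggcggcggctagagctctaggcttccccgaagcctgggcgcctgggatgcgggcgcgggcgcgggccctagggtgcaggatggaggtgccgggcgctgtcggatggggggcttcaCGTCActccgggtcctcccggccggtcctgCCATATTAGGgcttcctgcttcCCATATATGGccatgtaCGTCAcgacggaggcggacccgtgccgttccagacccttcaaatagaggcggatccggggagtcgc

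SRF, chr6:43171019-43171268, plus strand: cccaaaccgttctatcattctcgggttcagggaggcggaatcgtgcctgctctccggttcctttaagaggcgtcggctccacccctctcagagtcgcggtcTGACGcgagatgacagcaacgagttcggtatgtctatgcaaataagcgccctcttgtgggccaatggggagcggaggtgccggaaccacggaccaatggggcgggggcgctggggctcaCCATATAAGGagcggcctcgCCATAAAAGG

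FOS, chr14:75278578-75278827, plus strand: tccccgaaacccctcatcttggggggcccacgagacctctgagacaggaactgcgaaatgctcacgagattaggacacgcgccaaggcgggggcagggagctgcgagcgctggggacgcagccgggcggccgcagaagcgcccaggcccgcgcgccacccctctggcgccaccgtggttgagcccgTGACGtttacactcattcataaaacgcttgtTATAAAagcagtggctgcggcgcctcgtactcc

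DUSP1, chr5:172771196-172771445, minus strand: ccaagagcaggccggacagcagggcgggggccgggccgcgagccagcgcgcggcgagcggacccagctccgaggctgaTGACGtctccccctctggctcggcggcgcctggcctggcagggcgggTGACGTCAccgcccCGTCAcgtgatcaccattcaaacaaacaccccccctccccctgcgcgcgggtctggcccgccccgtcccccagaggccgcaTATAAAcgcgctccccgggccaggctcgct

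DUSP22, chr6:292237-292486, plus strand: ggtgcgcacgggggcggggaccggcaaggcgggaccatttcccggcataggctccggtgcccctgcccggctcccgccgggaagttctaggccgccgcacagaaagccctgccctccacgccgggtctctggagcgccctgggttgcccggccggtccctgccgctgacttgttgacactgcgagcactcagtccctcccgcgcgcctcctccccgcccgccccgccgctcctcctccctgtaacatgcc

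EGR1 and SRF each hold 2 CArG boxes in this window, DUSP1 a full cyclic AMP response element with further copies of its core, and FOS a core and a TATA motif. DUSP22 holds none of the motifs. Of the 51 genes, 39 had a promoter in the table. The core TGACG was present in 18 of the 39 (46.2%), against 21.6% of 27305 promoters of the same length, 1 for each gene. The full element was present in 3 (DUSP1, DUSP8 and JUND) against 1.75%, a CArG box in 2 (EGR1 and SRF) against 1.15%, and TATAAA in 5 against 11.2%. Neither the AP-1 motif TGACTCA nor the EGR motif GCGTGGGCG was found in any of the 39, against 4.15% and 0.714% of all promoters. These are matches of letters and not mapped binding sites, and sites outside the 250 bases were not searched.

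Most of the set was read well above background and was close to level between the arrays. As background served 27 probe sets for Bacillus subtilis control transcripts, with signals of up to 11.4 after control siRNA and up to 18.4 after HOXD9 siRNA-2. The higher value, 18.4, was used as the background of both arrays, a stricter limit for the control siRNA array than its own control transcripts give. A probe set was kept when its mean signal was at least 19.8, the median of all probe sets, and each gene was represented by the brightest of its kept probe sets. This left 45 genes with 100 probe sets, all of them above 18.4 on both arrays. In HOXD9 siRNA-2-transfected cells 1 of the 45, DUSP22, was lower by more than 2-fold, the threshold of the study, and 1, EGR3, was higher. EGR3 passed the filter only through its HOXD9 siRNA-2 signal, and DUSP22 was named in the set with its lower level already known. Among all 11624 named genes past the same filter 4.95% were lower and 0.516% higher.

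The arrays differed in overall level. The median log2 ratio of HOXD9 siRNA-2 over control siRNA was -0.25 for all named genes, and dividing each array by its own median (centering) added 0.30 to every log2 ratio. The median of the 45 genes was -0.20, or 0.10 after centering, against 0.05 for all genes. Of the 45, 20 lay below and 25 above the median of all genes, and the interquartile range was 0.32 against 0.41 for all genes. Within 0.5 of that median lay 36 of the 45 (80.0%), against 83.6% of all genes. Counted from 0 instead, 36 of the 45 were lower as deposited, and after centering 27 of the 45 were higher, so that the direction of the set as a whole depends on the scale. After centering, DUSP22 and EGR3 were again the genes of the set past 2-fold, and 2.31% of all genes were lower and 1.17% higher.

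**Figure D1:**
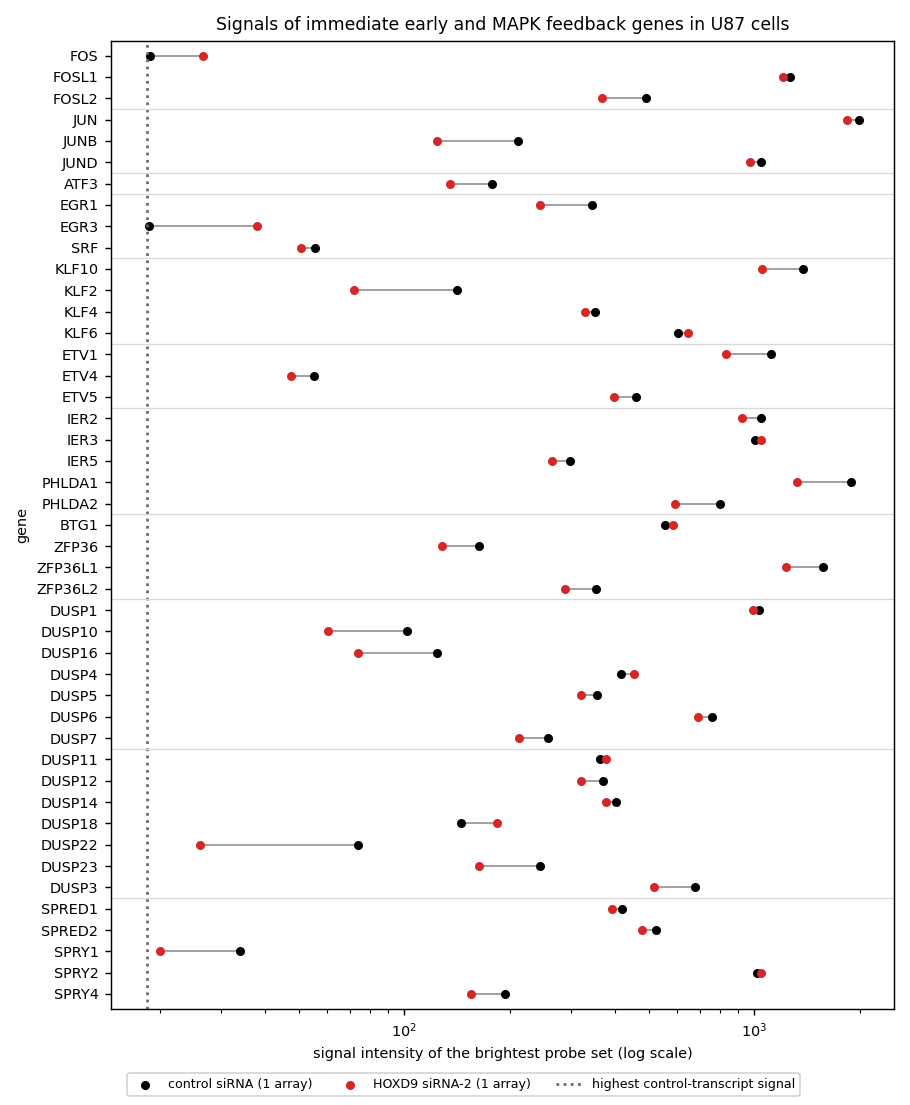
Signal intensity (x axis, log scale) of the brightest probe set of each of the 45 genes (y axis, grouped by role) on the control siRNA array (black) and the HOXD9 siRNA-2 array (red). The dotted line is the highest signal of the control transcripts, 18.4. DUSP22 and EGR3 have the widest gaps, while genes such as FOSL1, DUSP1 and SPRY2 have points that nearly coincide.

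The AP-1 factors are dimers of FOS and JUN proteins. The FOS signal was 18.7 after control siRNA, barely above the 18.4 used for both arrays, and 26.6 after HOXD9 siRNA-2 (log2 ratio 0.51). FOSL1, which encodes FRA-1, gave 1268 and 1205 (-0.07). FOSL2, which encodes FRA-2, gave 490 and 368 (-0.41) on its brightest probe set. The FOSL2 probe sets disagreed, with log2 ratios from -0.81 to 0.73 over 5 of them, so that no direction can be given for this gene. FOSB, at no more than 3.78, lay within the background on both arrays.

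Among the JUN genes the signals of JUN and JUND changed little and those of JUNB more. JUN gave 1990 and 1839 (log2 ratio -0.11, from -0.18 to 0.10 over 4 probe sets), and JUND, the member often linked to slower growth, gave 1043 and 975 (-0.10). JUNB went from 211 to 124 on its only probe set, a log2 ratio of -0.77, or -0.47 after centering, short of 2-fold on both scales. ATF3, a stress-induced partner of JUN, gave 178 and 135 (-0.40), and both of its kept probe sets lay below the median of all genes.

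EGR factors are zinc finger proteins induced through serum response factor. EGR1 gave 344 and 244 on its brightest probe set, a log2 ratio of -0.50, and 0.33 on its dimmest kept one. EGR3 was the gene of the set that was higher by more than 2-fold. Its signals were 18.7 and 37.9 on its only probe set, 2.03-fold, with a log2 ratio of 1.02 and of 1.32 after centering. The control siRNA signal of EGR3 stood just above the 18.4 used for both arrays, while the control transcripts reached 11.4 on that array. The size of the difference thus rests on a dim signal. That signal lay under the filter limit of 19.8, so that EGR3 passed the filter only through its HOXD9 siRNA-2 signal. Its place among the counted genes is therefore not independent of its being higher. SRF itself, the serum response factor, gave 55.5 and 50.6 (-0.13).

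Of the Krüppel-like factors, KLF2, known for its role in endothelium and in quiescent lymphocytes, came closest to the threshold. It went from 141 to 71.9, or 51.0% of the control, with a log2 ratio of -0.97 and of -0.67 after centering. KLF10, an early target of TGF-β, gave 1380 and 1055 (-0.39). KLF4 (350 and 328, -0.10) and KLF6 (606 and 649, 0.10) were near level on their brightest probe sets. The other kept KLF4 probe set gave -0.48 (53.7 and 38.6), and the 5 KLF6 probe sets ranged from -0.19 to 0.10. The KLF2 value has no second kept probe set beside it.

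The probe sets of the NR4A orphan nuclear receptors all lay under 18.4 with control siRNA. On that array the control transcripts reached only 11.4, whereas the NR4A2 signals were 15.8, 15.3 and 14.5. Absence of NR4A2 RNA therefore cannot be read from these values. The 3 probe sets of NR4A1 had signals of at most 8.98 and those of NR4A2 of at most 15.8 on either array. For NR4A3, 1 of 3 probe sets passed the background on the HOXD9 siRNA array alone, with 9.21 and 20.4, at least 1.11-fold higher, and the other two lay within it on both arrays. No fold difference is given for NR4A1 and NR4A2.

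ETV1, ETV4 and ETV5 are ETS factors whose transcription follows ERK activity in many tumors. ETV1 gave 1118 and 833 (log2 ratio -0.42, from -0.66 to 0.24 over 5 probe sets), and ETV5 gave 459 and 399 (-0.20, from -0.44 to 0.18 over 5). ETV4 gave 55.4 and 47.5 (-0.22). Its dimmer probe set, close to background with 19.8 and 30.1, gave 0.61. All 12 kept probe sets of these genes were within 2-fold, and those of ETV1 and ETV5 lay on both sides of the median of all genes.

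**Figure D2:**
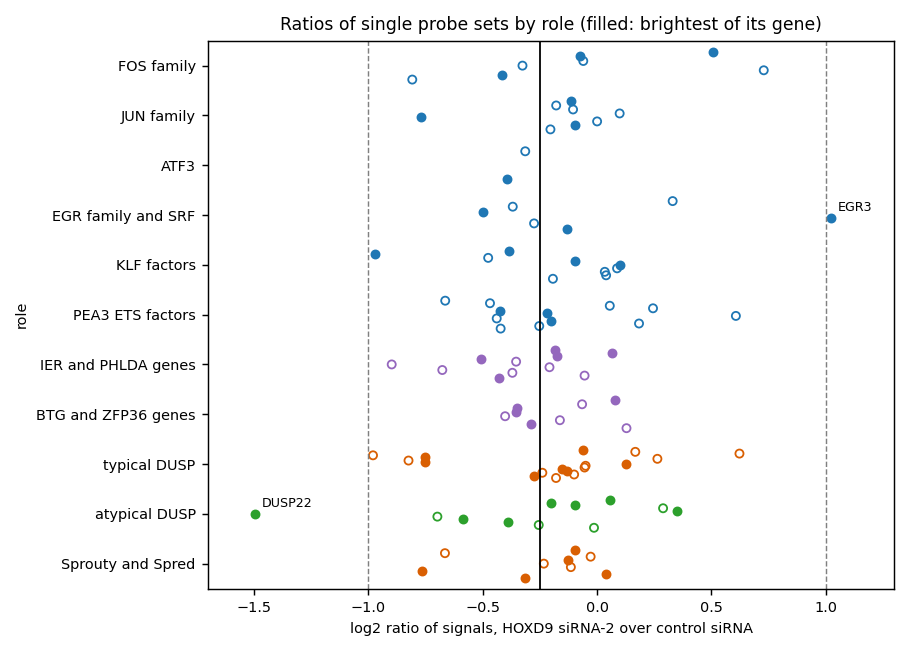
Log2 ratio of HOXD9 siRNA-2 to control siRNA (x axis) for each of the 100 kept probe sets by role of the gene (y axis). Filled points are the brightest probe set of a gene, 2-fold is dashed, and the median of all genes (-0.25) is drawn solid. 1 probe set each of DUSP22 and EGR3 lies past 2-fold.

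PHLDA1 and the IER genes are early response genes whose products act mainly in survival and signaling. PHLDA1 gave 1887 and 1328 (log2 ratio -0.51), and its 6 probe sets ran from -0.90 to -0.21, all of them below 0 in the deposited signals. PHLDA2, an imprinted regulator of placental growth, gave 801 and 594 (-0.43). IER2 (1049 and 922, -0.19), IER3 (1004 and 1049, 0.06) and IER5 (298 and 264, -0.17) lay above the median of all genes.

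ZFP36, ZFP36L1 and ZFP36L2 encode proteins that bind AU-rich elements and promote the decay of early response mRNAs. Their brightest probe sets gave log2 ratios of -0.35, -0.35 and -0.29, with signals of 163 and 128 for ZFP36, 1570 and 1229 for ZFP36L1, and 353 and 289 for ZFP36L2. These lay slightly below the median of all genes, but other probe sets of ZFP36L2 gave -0.16 and 0.13. BTG1, an antiproliferative gene, gave 555 and 585 (0.08).

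Of the typical DUSPs, which dephosphorylate MAPKs, those best known for restraining ERK were near level. DUSP6, the cytoplasmic phosphatase selective for ERK, gave 759 and 693, and its 3 probe sets had log2 ratios from -0.24 to -0.10, all above the median of all genes. DUSP4 gave 417 and 454 (0.12), DUSP5 356 and 320 (-0.15) and DUSP7 258 and 213 (-0.28). DUSP1, induced by mitogens and stress and active on p38 and JNK as well as ERK, gave 1034 and 991 (-0.06) on its brightest probe set and 0.62 on its dimmest, where the signals were 24.4 and 37.6.

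DUSP10, DUSP16 and DUSP8 encode phosphatases with a preference for JNK and p38. DUSP10 and DUSP16 were lower on their brightest probe sets, but 1 DUSP16 probe set went the other way, and DUSP8 did not pass the filter. DUSP10 went from 102 to 60.5, a log2 ratio of -0.75, and its other probe set, with 64.5 and 32.7, gave -0.98. DUSP16 went from 124 to 73.8 (-0.75), with -0.82 on another probe set and 0.26 on its dimmest kept one. Both fell short of 2-fold, and after centering the brightest probe sets stood at -0.45 in both genes. The probe sets of DUSP10 were both below the median of all genes, whereas those of DUSP16 lay on both sides of it. DUSP8 was above background on 1 of 2 probe sets with HOXD9 siRNA-2 alone (5.45 and 20.7, at least 1.13-fold higher), and DUSP2, at 3.08 and 15.5, was within it on both arrays.

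DUSP22 was the gene of the set that was lower by more than 2-fold, a direction already known when the set was named. It encodes JKAP, a small atypical phosphatase known to act on JNK signaling and, in T cells, on LCK, and lies at chr6:292487-351355 on GRCh38.p14. On its brighter probe set the signal went from 73.9 to 26.2 after HOXD9 silencing, that is to 35.4% of the control, 2.82-fold lower, with a log2 ratio of -1.50. On the other probe set the signals were 32.8 and 20.2, 1.62-fold lower, with a log2 ratio of -0.70. Each of these signals lay above the background and both probe sets pointed the same way, but they differed in size. After centering the log2 ratios were -1.20 and -0.40, so that the threshold was passed on the brighter probe set alone on both scales.

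The other atypical DUSPs, several of which act on substrates other than MAPKs, were within 2-fold. DUSP23 gave 245 and 163 (log2 ratio -0.58), DUSP3 (also called VHR) 676 and 516 (-0.39), DUSP12 369 and 320 (-0.20) and DUSP14 404 and 378 (-0.10). DUSP11, a phosphatase of RNA, gave 363 and 378 (0.06). DUSP18 was the highest of them, with 145 and 184 (0.35) and with 0.29 on its other probe set. The median of the 7 atypical genes was -0.20, the same as that of the whole set.

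Sprouty and Spred proteins restrain RAS and RAF activation downstream of receptor tyrosine kinases. SPRY2 gave 1020 and 1046 (log2 ratio 0.04), SPRED1 419 and 392 (-0.10), SPRED2 523 and 479 (-0.13) and SPRY4 194 and 156 (-0.32). The other kept SPRED1 probe sets gave -0.67 and -0.03. SPRY1, with 34.0 and 20.04, had the lowest log2 ratio of the 5 genes, -0.76, but its other probe set gave -0.11. The 12 typical DUSP, Sprouty and Spred genes past the filter had a median of -0.14 (0.16 after centering), and none passed 2-fold. The 17 transcription factors had a median of -0.20 (0.10).

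At the level of single probe sets, 1 of 100 was lower and 1 higher by more than 2-fold, against 6.69% and 0.615% of the 27307 probe sets past the filter. After centering 1 was lower and 2 were higher, the second a FOSL2 probe set at 1.03, against 2.94% and 1.51%. Where a gene had 2 or more kept probe sets, their ratios were compared. Such probe sets were read on the same 2 arrays, so they are replicates neither of the cells nor of the hybridization. Their pooled SD was 0.32 in log2 units over 28 genes of the set, against 0.41 over 6081 genes in all. Of the 28 genes, 4 (ATF3, DUSP10, DUSP22 and ZFP36L1) lay below the median of all genes on every probe set and 10 above it on every one, among them DUSP1, DUSP4, DUSP6, DUSP18, JUN, JUND and KLF6. Of the 6081 genes, 26.2% lay below it and 20.3% above it on every probe set. The rest of the 28 had probe sets on both sides of it.

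The share of genes past 2-fold depended on signal. With all genes past the filter ordered by mean signal into 3 classes of like size, 11.8% of the dimmest, 2.99% of the middle and 1.63% of the brightest class were past 2-fold in one direction or the other. The set had 8, 14 and 23 genes in these classes. DUSP22 and EGR3 were both among the 8 dim genes, and none of the brighter genes of the set was past 2-fold. In the brightest class the interquartile range of the set was 0.36 against 0.27 for all genes there, with medians of -0.11 and -0.20. The range was 0.78 against 0.65 in the dimmest class and 0.29 against 0.38 in the middle class.

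**Figure D3:**
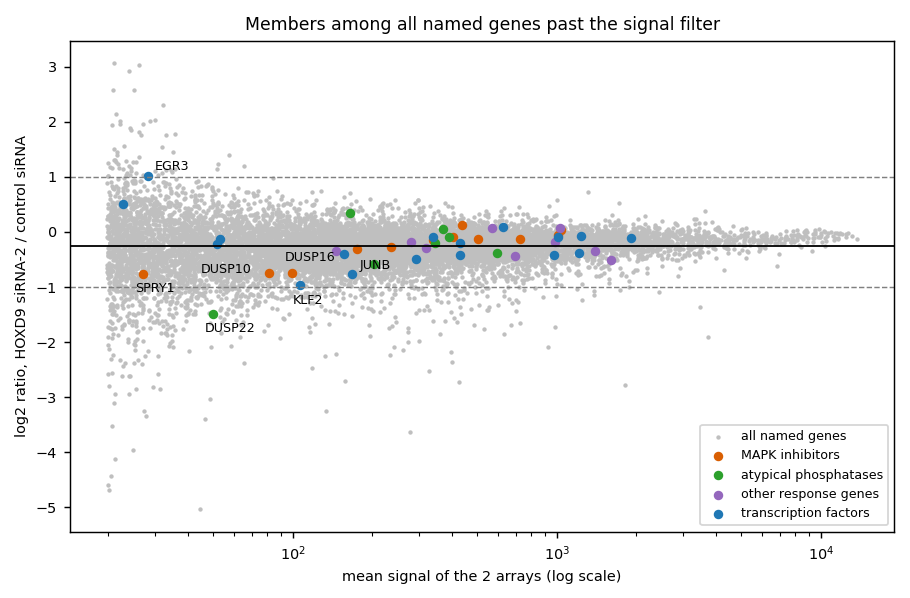
Log2 ratio of HOXD9 siRNA-2 to control siRNA (y axis) against the mean signal of the 2 arrays (x axis, log scale) for all 11624 named genes past the filter (gray) and the 45 genes of the set (colored by class). 2-fold is dashed, and the median of all genes (-0.25) is drawn solid. The gray cloud narrows to the right, and DUSP22 and EGR3 lie on its left side.

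Promoters with the TGACG core and those without it were set side by side as a description. The 15 genes past the filter with the core had a median log2 ratio of -0.13, and the 19 without it -0.35, with all genes at -0.25. The 15 include FOS, EGR1, JUN, JUNB and DUSP1. The difference between the medians was not tested.

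The kinase cascades that feed these genes were read in the same way. Of 35 listed genes of the RAS, RAF and MEK to ERK cascade, 27 were measured past the filter, 1 was lower by more than 2-fold and 0 were higher (4.95% and 0.516% of all genes), and the median was -0.27. After centering neither direction held a gene past 2-fold. MAP2K1 and MAP2K2, which encode the MEK kinases, gave 920 and 881 (log2 ratio -0.06) and 967 and 890 (-0.12), and MAPK3, which encodes ERK1, gave 234 and 259 (0.15). The gene past 2-fold was GAB1, a docking protein of receptor tyrosine kinases, with 84.9 and 37.5 (-1.18) on its brightest probe set. Other GAB1 probe sets gave -0.42, -0.61 and 0.13, and 1 was at least 2.07-fold higher, so that the gene has no common direction, and after centering the brightest stood at -0.88. ELK4, an ETS partner of serum response factor, gave -0.58 on its brightest probe set and so was within 2-fold, but -1.61 (232 and 76.0) and -1.42 (67.3 and 25.2) on others, which were also past 2-fold after centering. MRAS, a RAS-related GTPase, gave -0.59 on its brightest probe set (-0.29 after centering). On its other kept probe set it was at least 2.09-fold lower in the deposited signals, but within 2-fold after centering (-0.91).

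Of 29 listed genes of the JNK, p38 and ERK5 cascades, 24 were measured past the filter, 2 were lower and 1 was higher by more than 2-fold, with the same counts after centering, against 4.95% and 0.516% of all genes as deposited and 2.31% and 1.17% centered. With 24 genes these shares rest on single genes. MAP3K4, a kinase upstream of p38 and JNK, went from 296 to 91.4 and, on its other probe set, from 247 to 78.4, with log2 ratios of -1.69 and -1.66. MAP3K3 (MEKK3), which feeds ERK5, went from 99.2 to 34.8 and from 63.1 to 24.1 on its kept probe sets (-1.51 and -1.39). Both genes stayed past 2-fold after centering on each of these probe sets, at -1.39 and -1.36 for MAP3K4 and at -1.21 and -1.09 for MAP3K3. MAPK8IP3, a JNK scaffold, had 10.9 and 53.6 on the only one of its 5 probe sets past the filter and was at least 2.91-fold higher there. That probe set passed the filter only through its HOXD9 siRNA-2 signal. The other MAPK8IP3 probe sets lay within the background. MAPK12, which encodes p38γ, gave 0.24 on the first of its kept probe sets and 51.7 and 4.46 on the other, at least 2.81-fold lower.

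Of 40 other listed genes that respond to growth factors, 36 were measured past the filter, 5 were lower by more than 2-fold and 0 higher, against 4.95% and 0.516% of all genes. After centering 2 were lower and 0 higher, against 2.31% and 1.17%. The median of the list was -0.11, above that of all genes. Those 5 were EREG, which encodes the EGF receptor ligand epiregulin (788 and 297, log2 ratio -1.41), PTGS2, the inducible cyclooxygenase (91.2 and 35.9, -1.35), the survival gene MCL1 (1911 and 862, -1.15), the neuronal early gene ARC (90.7 and 43.4, -1.06) and ID3, an inhibitor of bHLH factors (1102 and 546, -1.01). After centering EREG (-1.11) and PTGS2 (-1.05) were still past 2-fold and the other three were not. The dimmer EREG probe set gave -0.47, and the other kept MCL1 probe sets gave -0.77, -0.79, -0.98 and -0.11, all within 2-fold. Of 15 further DUSP, Sprouty and related feedback genes, 8 were measured past the filter and none passed 2-fold, among them ERRFI1, a feedback inhibitor of the EGF receptor, with 2039 and 1974 (-0.05).

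**Figure D4:**
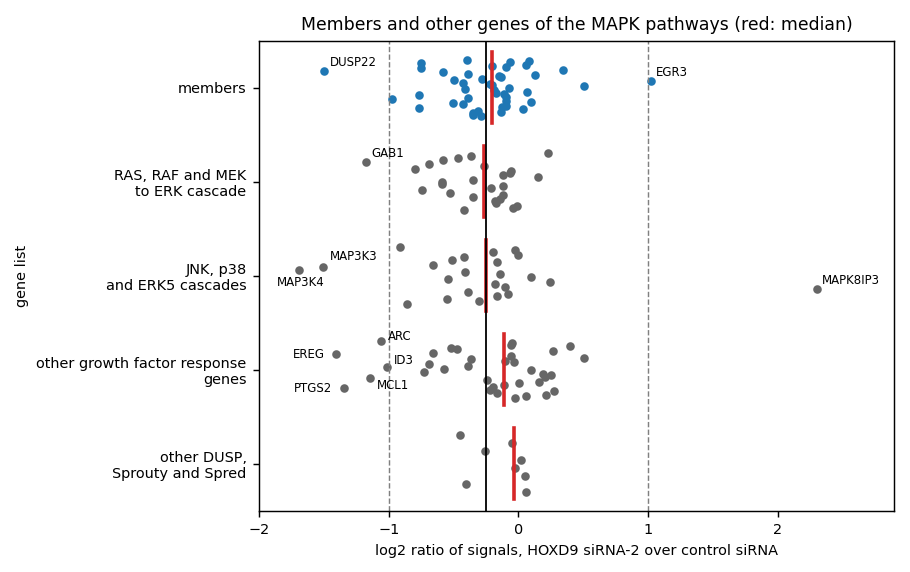
Log2 ratio of HOXD9 siRNA-2 to control siRNA (x axis) for the genes of the set (blue) and of 4 lists of related genes (gray), 1 point for the brightest kept probe set of a gene, in lists along the y axis. Red bars are list medians, 2-fold is dashed and the median of all genes solid. For MAPK8IP3 the plotted point is the measured ratio, with a control siRNA signal inside the background. The lower tail past 2-fold holds 1 gene of the set, DUSP22, and 8 genes of the other lists.

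HOXD9, the target of the siRNA, was itself dim, with 19.7 and 5.58 on 1 probe set and 9.33 and 11.4 on the other. In the deposited signals it was at least 1.07-fold lower on the former and could not be checked on the latter. This bound is smaller than the 0.30 in log2 units that centering adds, so that after centering no bound can be given. The study measured HOXD9 silencing in U87 cells by qRT-PCR. Of the glioma markers VIM (11349 and 10823), CD44 (5638 and 5012) and NES (116 and 70.6) were read, whereas GFAP, S100B and OLIG2 lay within the background and SOX2 was above it on 1 probe set with control siRNA alone (19.2). PTPRC of leukocytes and RBFOX3 of neurons were within the background, MBP reached 20.03, EPCAM 28.2 and PECAM1 43.4, the last on 1 of 5 probe sets.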

How the data were processed

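Total RNA of U87 cells was hybridized to Affymetrix U133 Plus 2.0 arrays, 1 per condition. The authors deposited a linear signal intensity for every probe set, with GCOS named in the submitters' processing notes. How the arrays were scaled is not stated in those notes or in the methods, so that an unequal scaling of the arrays would shift every ratio alike. The HOXD9 siRNA-2 signal was divided by the control siRNA signal and put on the log2 scale for 54613 probe sets, without the 62 controls. The platform annotation gave 41091 probe sets 1 gene and 1801 several, and 11721 were not listed. Symbols were updated by Entrez number through RefSeq (GRCh38.p14), which matched 41037. Probe sets with several genes were not used.

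A named gene in a share or median is any gene with a symbol. The text gives values for all genes of the set, HOXD9, all listed cell markers and up to 6 genes past 2-fold in each related list. MAP2K1, MAP2K2, MAPK3, ERRFI1, ELK4, MRAS and MAPK12 were included after their values were seen. The set and the lists were chosen with earlier results of these data known. Where 1 of 2 signals lay at or under 18.4, the fold is a bound against 18.4 on the deposited scale. Python 3.11.15, numpy 2.4.6, pandas 2.3.3, statsmodels 0.14.6 and matplotlib 3.10.9 were used, and the procedure was tested on simulated data.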

Additional observations from a re-analysis of the deposited data

How the results depend on the processing

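The ratios were recomputed after centering, after quantile normalization and after a loess trend (fraction 0.3) was taken out. Further alternatives were no filter, a mean signal of at least 75.7, low signals raised to the 20th percentile, only probe sets without the _x_at or _s_at suffix, and the mean over the probe sets of each gene. DUSP22 and EGR3 were the genes of the set past 2-fold under each of them except under the filters. With no filter 4 genes were higher (DUSP2, DUSP8, NR4A3 and EGR3), the first 3 from control siRNA signals within the background, and DUSP22 was still the 1 lower gene. With the stricter filter 0 of 39 genes were lower and 0 higher, since DUSP22 and EGR3 were too dim to be kept. The log2 ratio of DUSP22 ranged from -1.50 to -1.10 and that of EGR3 from 1.02 to 1.35 where they were kept. The median of the set was -0.21 to -0.19 on the deposited scale, and 0.10, 0.08 and 0.08 after centering, quantile normalization and loess, above the median of all genes in each of these settings. Averaging moved 1 gene, ETV4, by more than the pooled SD of 0.41 between probe sets (to 0.19), and no other gene moved by as much. Several alternatives could not have moved a gene that far. Centering adds the same 0.30 to every gene, and the filters do not change which probe set of a kept gene is brightest. Raising low signals changed no ratio of the 45 genes. Without replicates the noise of these arrays is not known, and 51.3% of the probe sets below the filter were past 2-fold. No paired analysis was possible because each condition has 1 array.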
